A study of Homo sapiens with 9 samples.

Results

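The 9 genes described here encode the signalling chains of the B-cell receptor and the proteins next to it: the receptor chains CD79A and CD79B, the coreceptors CD22, CD72 and CD81, the kinases LYN, SYK and BTK, and the adaptor BLNK. They were taken by symbol from the table of array values, out of 19775 genes with a usable probe set, and all 9 were among the 11250 genes tested. The cells were Daudi, a human B-cell line from a Burkitt lymphoma, in which a hairpin RNA lowers the transcript it is directed against. The 3 groups were cells with a hairpin against SLC7A5 (Slc7a5-sh), cells with a hairpin against MYC (C-Myc-sh), which the study used as its positive control, and cells with a control hairpin (Ctrl-sh). Each group had 3 arrays, labelled as biological replicates, and cells of every group had been under puromycin for 48 h. The labels do not say whether replicates came from separate infections, or how many different hairpins were used per gene, so p-values measure the spread between these samples. SLC7A5 is the light chain of a transporter of large neutral amino acids, and MYC is a transcription factor.

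The B-cell receptor is a membrane immunoglobulin bound to a heterodimer of CD79A and CD79B, whose tails carry the tyrosine motifs that start signalling. When antigen binds, the Src-family kinase LYN phosphorylates these motifs, SYK docks on them and phosphorylates the adaptor BLNK, and BLNK brings BTK to phospholipase C gamma. CD81 is a tetraspanin that organises proteins in the membrane, while CD22 and CD72 carry inhibitory motifs that recruit the phosphatase PTPN6. LYN acts on both sides, since it also phosphorylates these inhibitory motifs.

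The targeted transcripts were lower in both knockdowns. MYC was at 78.7% of its control signal in Slc7a5-sh, while C-Myc-sh cells had 46.9%, and SLC7A5 was at 80.0% with its own hairpin and at 75.4% with that against MYC (limma adjusted p between 4.7e-10 and 0.00414). In C-Myc-sh against Slc7a5-sh, SLC7A5 did not pass the test (log2 difference -0.08, limma adjusted p = 0.351), while MYC was lower (-0.74, limma adjusted p = 4.1e-08). Values are MAS5 signals on a log2 scale, with array medians between 6.05 and 6.26, and precision is limited by having 3 arrays a group. Of 7 measured B-cell markers, all 7 were above the filter level of 5.77 in every group. Their summed linear signal ranged from 46985 to 48824 in Slc7a5-sh, from 54830 to 55919 in C-Myc-sh and from 59730 to 62606 in Ctrl-sh. Of 13 T and NK cell markers, 2 were above that level in Slc7a5-sh, 4 in C-Myc-sh and 5 in Ctrl-sh, and of 10 myeloid markers 0 were in Slc7a5-sh, 1 in C-Myc-sh and 1 in Ctrl-sh. The sum of the T and NK cell markers was 564 to 677 in Slc7a5-sh, 603 to 711 in C-Myc-sh and 847 to 968 in Ctrl-sh, and that of the myeloid markers 231 to 510, 214 to 371 and 219 to 296 in the same order. CD3E and CD247 were above the level in every group, CD4, NCAM1 and CSF1R in C-Myc-sh and Ctrl-sh, and ZAP70 in Ctrl-sh only. All other markers of these lists were below it in every group. Of 12 epithelial and fibroblast markers, 6 were above it in Slc7a5-sh, 4 in C-Myc-sh and 4 in Ctrl-sh. Their sum was 876 to 976 in Slc7a5-sh, 797 to 1122 in C-Myc-sh and 858 to 989 in Ctrl-sh. Among them, ACTA2 had mean log2 signals of 7.29, 7.93 and 5.13 in the same order, and COL1A1 7.81, 7.93 and 8.51. The sum of 8 plasma cell markers, mostly JCHAIN, was 24247 to 30994 in Slc7a5-sh, 14946 to 18665 in C-Myc-sh and 31305 to 31492 in Ctrl-sh. Single plasma cell markers went both ways in C-Myc-sh, where 3 of 6 tested were called higher (SLAMF7 3.10, IRF4 1.84 and XBP1 0.30 on the log2 scale) and 3 lower (MZB1 -2.94, TNFRSF17 -1.91 and JCHAIN -0.95). In Slc7a5-sh 1 was called higher (XBP1, 0.38) and 1 lower (MZB1, -0.40). The called shares (limma adjusted p under 0.05) were 100% in C-Myc-sh and 33.3% in Slc7a5-sh, beside 54.9% and 25.3% of all tested genes. The part of these markers in the results below was not tested. All samples were of the Daudi line, so the marker sums were not read as numbers of cells of a type. In bulk RNA, fewer cells with a transcript and less of it per cell cannot be told apart.

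With the SLC7A5 hairpin, the inhibitory coreceptors CD22 and CD72 and the kinases LYN and SYK were lower, CD81 was lower by a small amount, and CD79B was higher. Of the 4 tested probe sets of SYK, only the one used here, with the highest mean, was called. With the MYC hairpin, CD22, BTK and CD81 were lower by larger amounts and CD79B was again higher. CD72 was lower only at the threshold (limma adjusted p = 0.0496), and LYN and SYK did not pass the test. A gene was called where its adjusted p was under 0.05 (limma, Benjamini-Hochberg adjusted over the 11250 tested genes). For Slc7a5-sh against Ctrl-sh 1 of the 9 genes was called higher and 5 lower, where 25.3% of all tested genes were called, 14.3% higher and 11.0% lower. For C-Myc-sh against Ctrl-sh 1 was called higher and 4 lower, where 54.9% of all genes were called, 28.7% higher and 26.2% lower, so this count is near the background. Both comparisons use the same 3 Ctrl-sh arrays. In the direct comparison of C-Myc-sh with Slc7a5-sh 5 were higher and 3 lower, against 49.5% of all genes, 24.4% higher and 25.1% lower. Calls were more frequent among well expressed genes. Of the 6543 tested genes with a mean log2 signal of at least 9.17, the lowest mean of the 9, 36.6% were called for Slc7a5-sh, 70.5% for C-Myc-sh and 66.1% in the direct comparison. The median log2 change of the 9 genes was -0.15 in Slc7a5-sh cells and 0.06 in C-Myc-sh, against 0.03 and 0.04 over all tested genes.

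**Figure D1:**
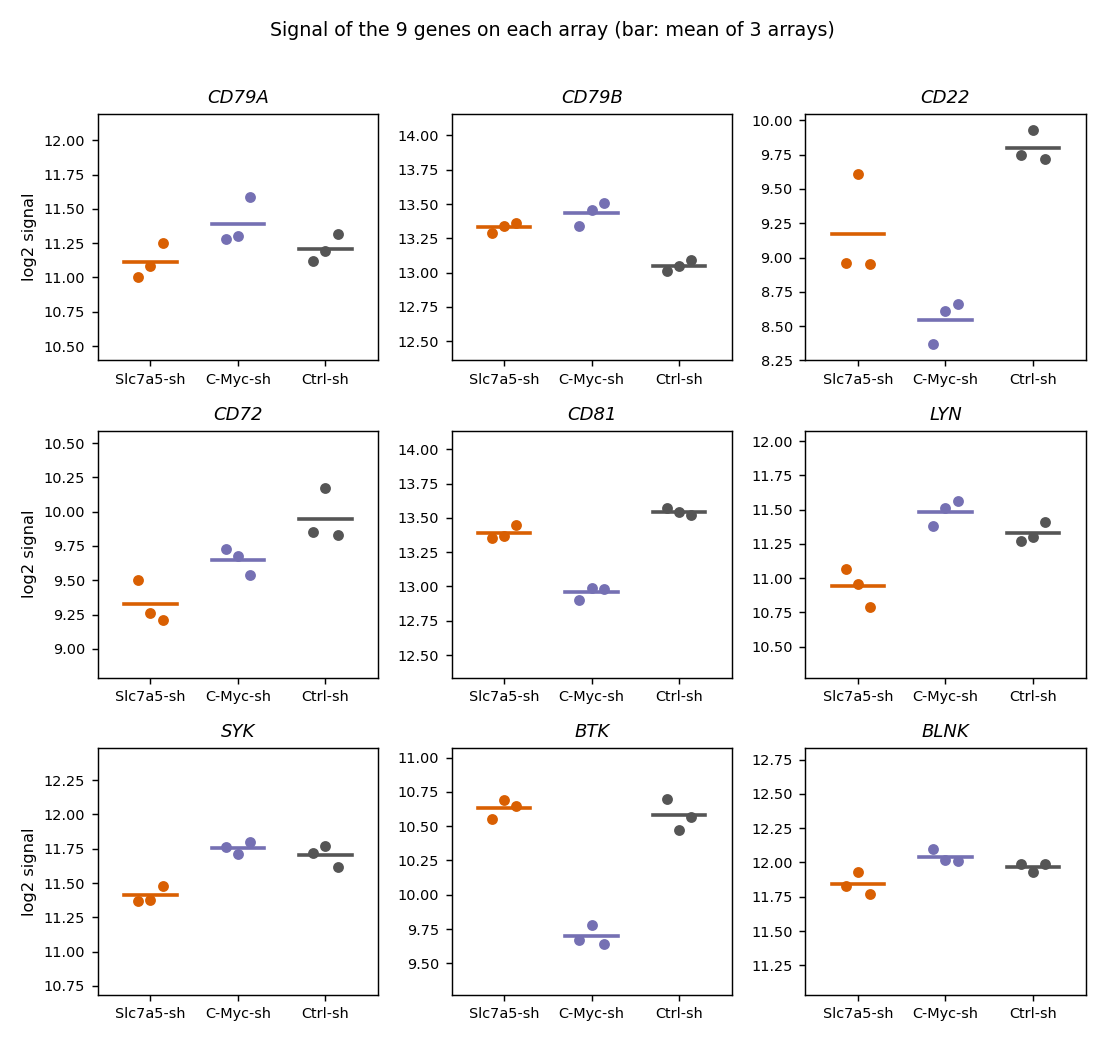
Log2 signal (y axis) of each gene on each of the 9 arrays, by group; points are arrays in order of replicate number, bars are means of 3, and every panel spans the same range. BTK lies between 9.64 and 9.78 on the C-Myc-sh arrays and above 10.4 on all others, and CD22 is below its control arrays in both knockdowns.

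Promoter sequences are shown for 4 of the genes. CD22 and CD72 were lower in both knockdowns, CD72 in C-Myc-sh only at the threshold. BTK was lower with the MYC hairpin, and CD79A did not pass against Ctrl-sh in either knockdown. A window of 250 bases before to 50 after a start was found in RefSeq (GRCh38.p14) for 6 of the 9 genes, CD72, SYK, BLNK, CD22, CD79A and BTK, with 9 windows in all because SYK and BTK have several starts. On both strands, 4 motifs were searched: the E-box CACGTG, which MYC with MAX can bind, the Ets core GGAAGT, the octamer ATGCAAAT bound by POU2F factors, and the EBF core CCCNNGGG. Matches are in capitals below; no 2 of them overlapped.
CD22, chr19:35328937-35329236, plus strand: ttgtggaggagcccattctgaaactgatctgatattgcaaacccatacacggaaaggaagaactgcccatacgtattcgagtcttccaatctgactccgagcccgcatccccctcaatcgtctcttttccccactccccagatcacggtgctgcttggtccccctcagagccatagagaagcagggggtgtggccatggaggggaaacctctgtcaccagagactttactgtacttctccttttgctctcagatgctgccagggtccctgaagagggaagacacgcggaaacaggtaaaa
CD72, chr9:35618364-35618663, minus strand: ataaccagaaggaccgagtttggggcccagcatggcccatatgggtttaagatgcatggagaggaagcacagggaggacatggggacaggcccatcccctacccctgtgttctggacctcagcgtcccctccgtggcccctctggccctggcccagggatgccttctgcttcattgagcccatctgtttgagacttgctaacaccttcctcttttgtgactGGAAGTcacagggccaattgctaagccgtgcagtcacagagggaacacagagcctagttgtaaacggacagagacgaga
BTK, chrX:101390747-101391046, minus strand: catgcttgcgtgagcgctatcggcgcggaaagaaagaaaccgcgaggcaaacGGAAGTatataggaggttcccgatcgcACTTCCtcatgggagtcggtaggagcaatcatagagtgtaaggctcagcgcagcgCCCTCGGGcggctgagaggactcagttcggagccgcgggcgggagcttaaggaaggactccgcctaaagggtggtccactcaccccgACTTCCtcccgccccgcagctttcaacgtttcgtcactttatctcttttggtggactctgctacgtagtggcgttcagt
CD79A, chr19:41877029-41877328, plus strand: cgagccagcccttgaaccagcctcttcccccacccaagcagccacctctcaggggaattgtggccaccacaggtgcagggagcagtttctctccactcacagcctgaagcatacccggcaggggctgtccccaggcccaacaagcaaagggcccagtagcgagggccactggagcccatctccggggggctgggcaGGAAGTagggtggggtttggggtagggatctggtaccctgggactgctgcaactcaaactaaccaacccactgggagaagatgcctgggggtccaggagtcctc

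Of the 6 genes, 5 had the Ets core in a window and 1 of 6 did not, the exception being CD22. In all, 5 of the 9 windows held it, compared with 22.8% of 35116 promoter windows of the same length. Counted on the gene's strand from the start, its first base lay at -29 in CD72 and at -54 in CD79A. BTK had 3 matches in the window shown, at -198, -171 and -29, and there also the 1 EBF core match, at -116. The EBF core was found in 19.1% of all windows. The other window of BTK, at another start, held no match to any of the motifs. The E-box and the octamer were in 0 of the 9 windows, compared with 7.26% and 1.77% of all windows. These matches are letters in a window, not sites of binding, and genes that were called and genes that were not both had them.

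Of the receptor chains, CD79B was higher in both knockdowns. Its log2 signals were 13.29, 13.34 and 13.36 in Slc7a5-sh cells, 13.34, 13.46 and 13.51 in C-Myc-sh, and 13.01, 13.05 and 13.09 in Ctrl-sh. All 6 knockdown arrays lay above the 3 control arrays. The log2 change was 0.28 in Slc7a5-sh (1.21-fold, SE 0.05, limma adjusted p = 0.00196) and 0.39 in C-Myc-sh (1.31-fold, SE 0.05, limma adjusted p = 2.6e-05). It rested on 1 probe set, since the other 2 of CD79B averaged below the filter level and were not tested. With the mean of all 3 the Slc7a5-sh change was 0.55 and not called (limma adjusted p = 0.409), and CD79B was 2.83-fold higher in C-Myc-sh (limma adjusted p = 0.0103). Quantile normalization gave 0.59 for CD79B in C-Myc-sh. CD79A, the partner chain, had 11.00, 11.08 and 11.25 in Slc7a5-sh cells, 11.28, 11.30 and 11.59 in C-Myc-sh, and 11.12, 11.19 and 11.32 in Ctrl-sh. The control arrays overlapped with those of each knockdown. Its changes were -0.10 in Slc7a5-sh (95% confidence interval -0.30 to 0.10, limma adjusted p = 0.493) and 0.18 in C-Myc-sh (-0.02 to 0.38, limma adjusted p = 0.118). The second probe set of CD79A gave 0.21 in Slc7a5-sh, the opposite sign, and 0.17 in C-Myc-sh, and passed in neither.

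Of the coreceptors, CD22, a lectin of sialylated ligands that restrains receptor signalling, had the lowest change of the 9 genes in C-Myc-sh. Its log2 signals were 8.96, 9.61 and 8.95 in Slc7a5-sh cells, 8.37, 8.61 and 8.66 in C-Myc-sh, and 9.75, 9.93 and 9.72 in Ctrl-sh. The groups did not overlap, and Slc7a5-sh replicate 2 lay nearest to the controls. CD22 fell by 1.25 on the log2 scale in C-Myc-sh, to 42.0% of its control signal (SE 0.17, limma adjusted p = 1.6e-05), and fell by 0.63 in Slc7a5-sh, to 64.7% (SE 0.17, limma adjusted p = 0.0136). The Slc7a5-sh call was lost without Ctrl-sh replicate 2 (-0.57), without Slc7a5-sh replicate 1 (-0.52) and without Slc7a5-sh replicate 3 (-0.52, limma adjusted p = 0.0562 to 0.0607 over these). It was also lost with the mean of all probe sets (-1.07, limma adjusted p = 0.0701). The 2 other tested probe sets of CD22 were called lower in both knockdowns, with log2 changes of -0.92 and -1.12 in Slc7a5-sh and -0.82 and -1.83 in C-Myc-sh.

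CD72, a C-type lectin with an inhibitory motif, was read by 1 probe set. Its log2 signals were 9.50, 9.26 and 9.21 in Slc7a5-sh cells, 9.73, 9.68 and 9.54 in C-Myc-sh, and 9.85, 10.17 and 9.83 in Ctrl-sh. Both knockdowns lay below the controls, Slc7a5-sh lowest, with no overlap between any 2 groups. It fell by 0.63 on the log2 scale in Slc7a5-sh, to 64.7% (SE 0.12, limma adjusted p = 0.00173). In C-Myc-sh the change of -0.30 was at the threshold (95% confidence interval -0.56 to -0.04, limma adjusted p = 0.0496). That call was lost in 10 of 17 alternative settings (highest adjusted p = 0.232), 6 of them the omission of 1 array: Ctrl-sh replicate 1 (-0.35) or 2 (-0.19), Slc7a5-sh replicate 2 (-0.30), or C-Myc-sh replicate 1 (-0.34), 2 (-0.31) or 3 (-0.25).

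CD81, a tetraspanin, was also read by 1 probe set and had a narrow spread. It gave 13.35, 13.37 and 13.45 in Slc7a5-sh cells, 12.90, 12.99 and 12.98 in C-Myc-sh, and 13.57, 13.54 and 13.52 in Ctrl-sh. The C-Myc-sh arrays were the lowest and the Slc7a5-sh arrays lay between the other groups. CD81 fell by 0.59 on the log2 scale in C-Myc-sh, to 66.5% (SE 0.05, limma adjusted p = 1.5e-07). Quantile normalization gave -0.39 there, 1.5 times less on the log2 scale. The change of -0.15 in Slc7a5-sh (SE 0.05, limma adjusted p = 0.0398) lost its call in 10 of 18 alternative settings. Among these was the omission of any one of Ctrl-sh replicate 1 (-0.14), 2 (-0.15) or 3 (-0.16), of Slc7a5-sh replicate 1 (-0.13) or 2 (-0.14), or of C-Myc-sh replicate 3 (-0.15).

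**Figure D2:**
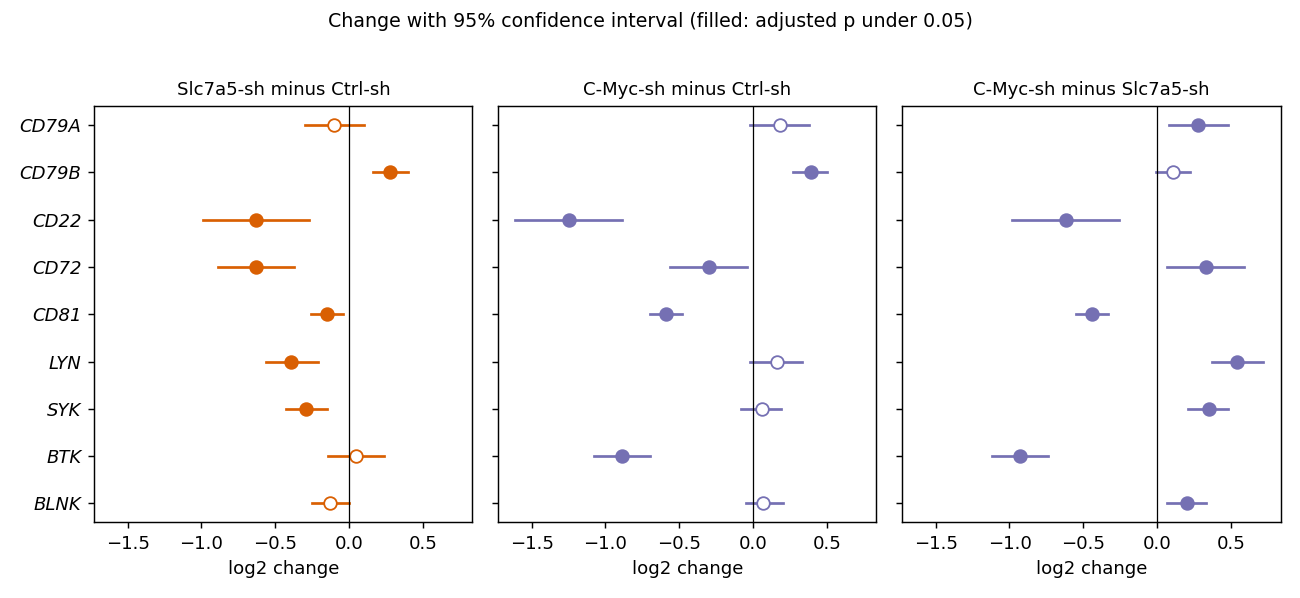
Log2 change (x axis) of each gene in the 3 comparisons; points are limma estimates, lines are 95% confidence intervals and filled points have an adjusted p under 0.05. LYN and SYK lie left of 0 for Slc7a5-sh (-0.39 and -0.29) and at 0.16 and 0.06 for C-Myc-sh, while BTK lies at 0.05 for Slc7a5-sh and at -0.89 for C-Myc-sh.

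Read by the probe sets used here, the kinases split by hairpin, but no other SYK probe set was called in Slc7a5-sh. BTK, a Tec-family kinase, had 10.55, 10.69 and 10.65 in Slc7a5-sh cells, 9.67, 9.78 and 9.64 in C-Myc-sh, and 10.70, 10.47 and 10.57 in Ctrl-sh. The C-Myc-sh arrays lay far below the other 6, which overlapped. BTK fell by 0.89 on the log2 scale in C-Myc-sh, to 54.0% (SE 0.09, limma adjusted p = 6.7e-07). In Slc7a5-sh the change was 0.05 (95% confidence interval -0.14 to 0.24, limma adjusted p = 0.749). LYN, the Src-family kinase that starts the cascade, showed another order. Its log2 signals were 11.07, 10.96 and 10.79 in Slc7a5-sh cells, 11.38, 11.51 and 11.56 in C-Myc-sh, and 11.27, 11.30 and 11.41 in Ctrl-sh. The Slc7a5-sh arrays were below all others, and the C-Myc-sh arrays overlapped with the controls. LYN fell by 0.39 on the log2 scale in Slc7a5-sh, to 76.6% (SE 0.08, limma adjusted p = 0.00309). In C-Myc-sh it was at 0.16 (95% confidence interval -0.02 to 0.33, limma adjusted p = 0.119).

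SYK, the kinase that binds the phosphorylated receptor tails, had 11.37, 11.38 and 11.48 in Slc7a5-sh cells, 11.76, 11.71 and 11.80 in C-Myc-sh, and 11.72, 11.77 and 11.62 in Ctrl-sh. As for LYN, the Slc7a5-sh arrays were the lowest on the probe set used here and the other 2 groups overlapped. SYK fell by 0.29 on the log2 scale in Slc7a5-sh (81.8% of control, SE 0.06, limma adjusted p = 0.00421) and was at 0.06 in C-Myc-sh (95% confidence interval -0.08 to 0.19, limma adjusted p = 0.482). BLNK, the adaptor that links SYK to BTK, had the smallest spread over the 9 arrays. It gave 11.83, 11.93 and 11.77 in Slc7a5-sh cells, 12.10, 12.02 and 12.01 in C-Myc-sh, and 11.99, 11.93 and 11.99 in Ctrl-sh. The C-Myc-sh arrays lay just above the controls and the Slc7a5-sh arrays below them, with replicate 2 of Slc7a5-sh and of Ctrl-sh both at 11.93, and the differences were small. They were -0.13 (95% confidence interval -0.25 to 0.00, limma adjusted p = 0.139) and 0.07 (-0.05 to 0.20, limma adjusted p = 0.312). Under quantile normalization the C-Myc-sh change of BLNK was 0.17 and called (limma adjusted p = 0.0234).

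The probe sets of a gene did not always give one answer. The 9 genes had 20 probe sets, of which 17 were above the filter level, and CD79A, CD22, LYN and SYK had several of these. The 3 probe sets of LYN lay at -0.39, -0.36 and -0.28 in Slc7a5-sh, the last not called, and at 0.16, 0.20 and 0.26 in C-Myc-sh, none called singly (limma adjusted p = 0.0545 to 0.136). The mean of the 3 was called higher in C-Myc-sh (0.20, limma adjusted p = 0.0266). SYK was less uniform. Its main probe set was the only one of 4 called in Slc7a5-sh, and the others lay at -0.05, -0.24 and 0.17. In C-Myc-sh the main one and 2 others lay at 0.06, 0.11 and 0.09, while 244023_at was called higher. This probe set had 9.23, 9.34 and 9.28 in Slc7a5-sh cells, 10.13, 10.34 and 9.96 in C-Myc-sh, and 8.97, 9.17 and 9.19 in Ctrl-sh, with the C-Myc-sh arrays above all others (log2 change 1.03, SE 0.12, limma adjusted p = 4.6e-06). Which SYK transcripts it reads was not tested. With the mean of all its probe sets, SYK was not called in Slc7a5-sh (-0.10, limma adjusted p = 0.306) and was called higher in C-Myc-sh (0.32, limma adjusted p = 0.00124).

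**Figure D3:**
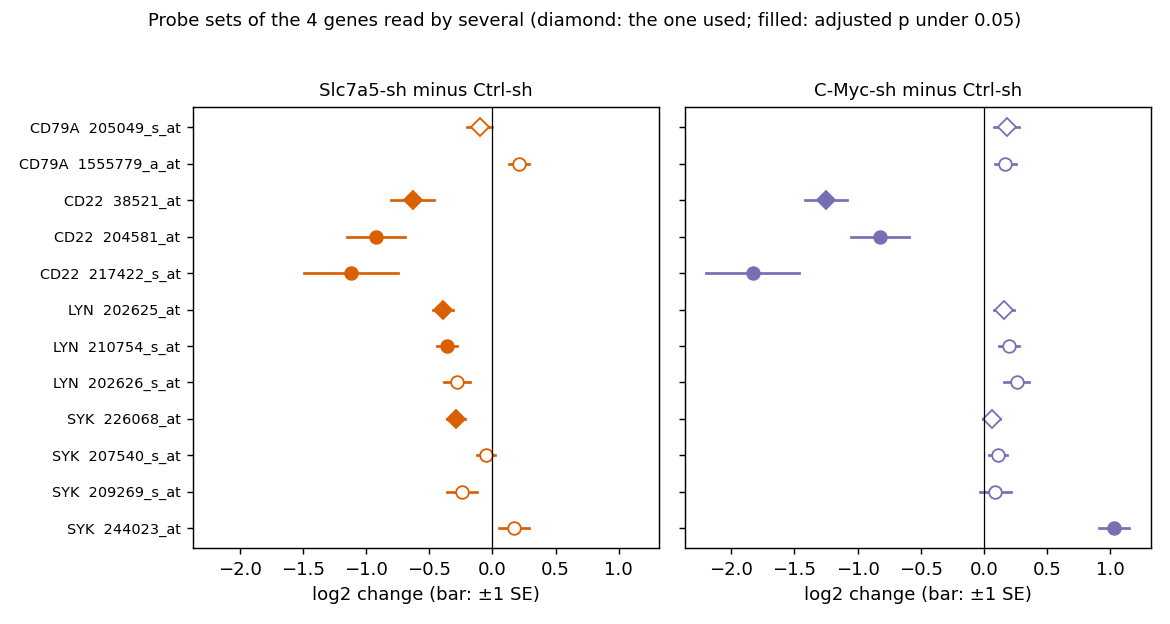
Log2 change (x axis, with 1 SE) of every tested probe set of CD79A, CD22, LYN and SYK in each knockdown against Ctrl-sh; diamonds are the probe sets used for the gene and filled symbols have an adjusted p under 0.05. The 3 CD22 probe sets all lie left of 0 in both panels, and 1 SYK probe set stands at 1.03 for C-Myc-sh, apart from its other 3 at 0.06 to 0.11.

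The direct comparison tested whether the knockdowns differed from each other. LYN was 1.46-fold higher in C-Myc-sh than in Slc7a5-sh (log2 difference 0.54, SE 0.08, limma adjusted p = 5.7e-05) and SYK 1.27-fold (0.35, SE 0.06, limma adjusted p = 3.7e-04), with no overlap of arrays. All 3 LYN probe sets gave 0.54 or 0.55, while the other 3 of SYK gave 0.16, which was not called, 0.33 and 0.86. BTK was lower in C-Myc-sh than in Slc7a5-sh, by a log2 difference of -0.93 (SE 0.09, limma adjusted p = 5.8e-07), and CD81 by -0.44 (SE 0.05, limma adjusted p = 4.8e-06). These 4 calls and that of BLNK (0.20, limma adjusted p = 0.0112) held in every alternative setting that gave a value, other probe sets taken singly left aside. BLNK gave none without _s_at and _x_at probe sets. CD22 differed by -0.62 (limma adjusted p = 0.00661), but only on the probe set used here. Its other tested probe sets were not called, 204581_at at 0.10 and 217422_s_at at -0.72 (limma adjusted p = 0.14). With the mean of all its probe sets CD22 was at -0.51 and not called (limma adjusted p = 0.293). CD72 was higher in C-Myc-sh by 0.33 (limma adjusted p = 0.0363) and CD79A by 0.28 (limma adjusted p = 0.0227). CD72 lost this call without Slc7a5-sh replicate 2 (0.30) or 3 (0.27) or C-Myc-sh replicate 1 (0.29) or 2 (0.32). CD79A lost it without Slc7a5-sh replicate 1 (0.22) or 2 (0.27) or C-Myc-sh replicate 3 (0.18). CD79B, higher in both knockdowns, was at 0.11 between them (95% confidence interval -0.01 to 0.22, limma adjusted p = 0.122), but was called under quantile normalization (0.28, limma adjusted p = 1.7e-04) and without C-Myc-sh replicate 1 (0.16).

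Genes around the receptor were taken from lists of its other chains, coreceptors, kinases, adaptors, enzymes and phosphatases. Of 93 tested genes on these lists, 11 were higher and 18 lower in Slc7a5-sh (median log2 change 0.01), and 36 higher and 26 lower in C-Myc-sh (median 0.10). The called shares of 31.2% and 66.7% compare with 25.3% and 54.9% of all tested genes. Immunoglobulin and surrogate chains had 1 of 8 tested members higher and 2 lower in Slc7a5-sh, and 1 higher and 4 lower in C-Myc-sh. IGHM, the mu heavy chain, rose by 0.35 in Slc7a5-sh cells and 0.90 in C-Myc-sh on the log2 scale, and IGHD, the delta chain, had log2 changes of -0.90 in Slc7a5-sh cells and -0.66 in C-Myc-sh, both called. Probe sets of immunoglobulin genes can bind related genes, and without _s_at and _x_at probe sets IGHM was at 0.05 and IGHD at -0.28 in Slc7a5-sh, neither called. With the mean of all its probe sets IGHD was called in neither knockdown, at -0.62 in Slc7a5-sh cells (limma adjusted p = 0.213) and -0.41 in C-Myc-sh (limma adjusted p = 0.309). VPREB3, which binds immunoglobulin chains during assembly, was lower in both, with log2 changes of -1.24 in Slc7a5-sh cells and -2.50 in C-Myc-sh.

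Other coreceptors and inhibitory receptors had 1 of 18 tested members higher and 5 lower in Slc7a5-sh, and 11 higher and 4 lower in C-Myc-sh. Of all tested genes, 14.3% were higher and 11.0% lower in Slc7a5-sh, and 28.7% higher and 26.2% lower in C-Myc-sh. CR2, a complement receptor, fell by 0.89 in Slc7a5-sh and rose by 1.08 in C-Myc-sh on the log2 scale. CD180, a Toll-like receptor homologue, was lower in both, at -1.11 in Slc7a5-sh cells and -2.14 in C-Myc-sh. FCRL3, an Fc receptor-like protein, rose by 1.00 in Slc7a5-sh cells and 4.02 in C-Myc-sh, CD40 rose by 3.29 in C-Myc-sh, and FCRLA was lower in both, at -0.45 in Slc7a5-sh cells and -2.35 in C-Myc-sh. Without _s_at and _x_at probe sets FCRLA was at -0.12 in Slc7a5-sh and not called. Averaging all probe sets, CR2 was at -0.39 in Slc7a5-sh cells and 0.83 in C-Myc-sh, and FCRL3 at 0.36 in Slc7a5-sh, none called. Of 7 other Src and Tec family kinases and their regulators, 1 was higher and 2 lower in Slc7a5-sh, and 2 higher and 3 lower in C-Myc-sh. FGR was lower in both, at -1.04 in Slc7a5-sh cells and -0.80 in C-Myc-sh. In C-Myc-sh LCK (-2.20) and the membrane adaptor PAG1 (-0.64) were lower. FYN rose by 0.29 in Slc7a5-sh, a call lost without Ctrl-sh replicate 1 (0.27), Ctrl-sh replicate 3 (0.26) or Slc7a5-sh replicate 3 (0.24).

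CSK, which phosphorylates the inhibitory tail of LYN, is named here after its values were seen. It was at -0.32 in Slc7a5-sh (limma adjusted p = 0.0187) and 0.48 in C-Myc-sh (limma adjusted p = 4.0e-04). The Slc7a5-sh call was lost without Ctrl-sh replicate 1 (-0.31) or 2 (-0.25) or Slc7a5-sh replicate 2 (-0.26) or 3 (-0.28). Adaptors had 5 of 19 members higher and 5 lower in Slc7a5-sh, and 8 higher and 3 lower in C-Myc-sh. The called shares were 52.6% in Slc7a5-sh, beside 25.3% of all tested genes, and 57.9% in C-Myc-sh, near the 54.9% of all tested genes. GRB2 (-0.61) and STAP1 (-0.53) were lower in Slc7a5-sh on the log2 scale. DOK3, an inhibitory adaptor, was lower in both, at -0.72 in Slc7a5-sh cells and -3.04 in C-Myc-sh, and without _s_at and _x_at probe sets it was at -0.01 in Slc7a5-sh and not called. DAPP1, which binds phosphoinositides, was higher in both, at 0.44 in Slc7a5-sh cells and 1.64 in C-Myc-sh, and so was the cortactin relative HCLS1, at 0.24 in Slc7a5-sh cells and 0.94 in C-Myc-sh. Without those probe sets DAPP1 was called in neither, at 0.26 in Slc7a5-sh cells (limma adjusted p = 0.722) and 0.94 in C-Myc-sh (limma adjusted p = 0.0913).

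Of 30 downstream enzymes and their partners, 3 were higher and 4 lower in Slc7a5-sh, and 9 higher and 9 lower in C-Myc-sh. The called shares of 23.3% and 60% were near those of all tested genes, 25.3% and 54.9%. PLCG2, the phospholipase that BTK activates, fell by 0.60 in Slc7a5-sh (SE 0.09, limma adjusted p = 2.7e-04) and by 0.92 in C-Myc-sh (SE 0.09, limma adjusted p = 6.2e-07) on the log2 scale. The guanine nucleotide exchange factor RASGRP1 was lower in both, at -0.72 in Slc7a5-sh cells and -0.40 in C-Myc-sh, and so was the kinase AKT1, at -0.50 in Slc7a5-sh cells and -0.44 in C-Myc-sh. RASGRP1 lost its C-Myc-sh call without Ctrl-sh replicate 2 (-0.33) or 3 (-0.33) or C-Myc-sh replicate 1 (-0.34) or 2 (-0.40). PIK3CD, the delta catalytic subunit of phosphoinositide 3-kinase, rose by 2.17 in C-Myc-sh, and BCL10, of the complex that links the receptor to NF-kB, rose by 0.70. Among 11 phosphatases, 0 were called in Slc7a5-sh by limma, beside 25.3% of all tested genes, with 2 at an unadjusted p under 0.05. In C-Myc-sh 5 were higher and 3 lower, a called share of 72.7% beside 54.9% of all tested genes. PTPN6, which CD22 and CD72 recruit, rose by 1.76 in C-Myc-sh and INPP5D, a phosphoinositide phosphatase, by 0.88. PTPN22 fell there by 1.39, and was at -0.61 and not called with the mean of all its probe sets (limma adjusted p = 0.144).

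**Figure D4:**
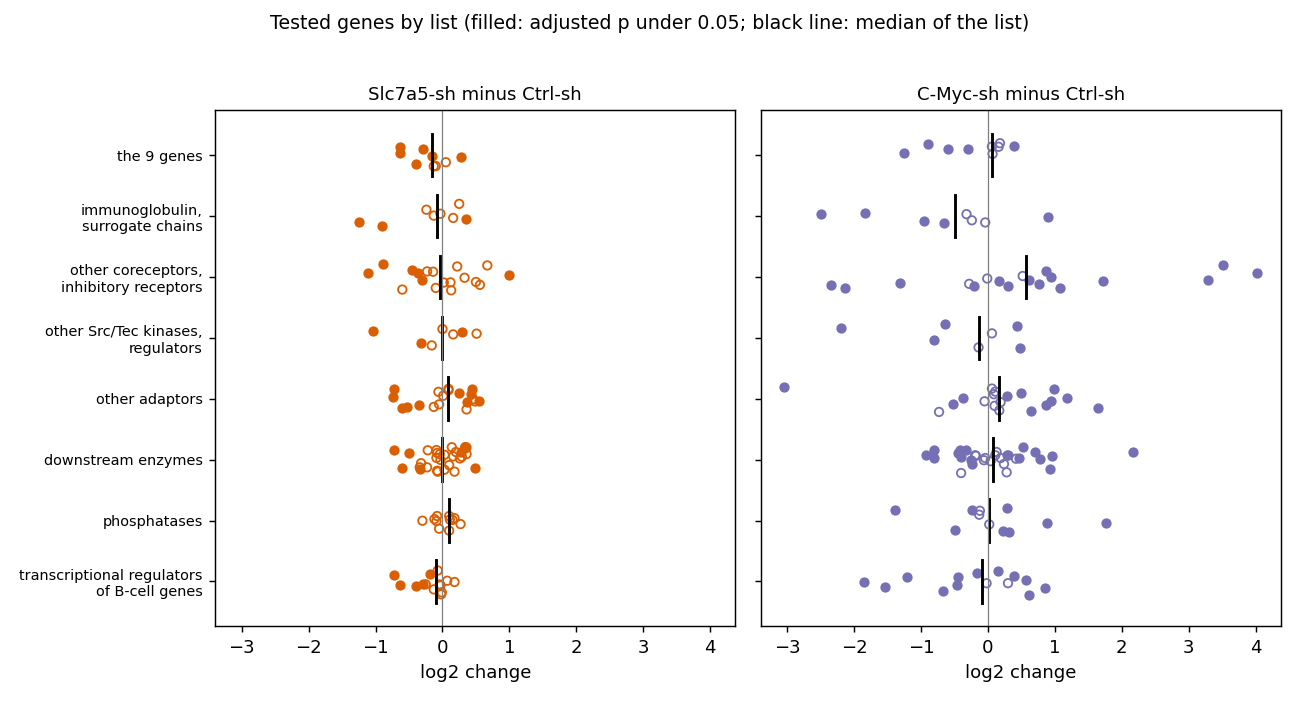
Log2 change (x axis) of every tested gene of each list in each knockdown against Ctrl-sh; filled points have an adjusted p under 0.05, black lines are list medians and vertical scatter has no meaning. The 9 genes span -0.63 to 0.28 for Slc7a5-sh and -1.25 to 0.39 for C-Myc-sh, while other coreceptors reach 4.02 for C-Myc-sh.

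Transcription factors that control B-cell genes had 0 of 14 tested members higher and 5 lower in Slc7a5-sh (limma; 6 at an unadjusted p under 0.05), and 5 higher and 7 lower in C-Myc-sh. The called shares of 35.7% in Slc7a5-sh cells and 85.7% in C-Myc-sh stand beside 25.3% and 54.9% of all tested genes. PAX5, which keeps B-cell identity and is known to activate CD79A and BLNK, fell by 0.64 in Slc7a5-sh (SE 0.10, limma adjusted p = 3.1e-04) and rose by 0.62 in C-Myc-sh (limma adjusted p = 7.7e-05). EBF1, another activator of CD79A, rose by 0.85 in C-Myc-sh (limma adjusted p = 3.3e-08) and was at -0.19 in Slc7a5-sh (limma adjusted p = 0.0447), a call lost in 13 of 18 alternative settings, among them the omission of any array but Slc7a5-sh replicate 3 (-0.21 to -0.15 without each). IKZF1 was lower in both, at -0.72 in Slc7a5-sh cells and -1.21 in C-Myc-sh, as was ETS1, at -0.29 in Slc7a5-sh cells and -0.46 in C-Myc-sh. ID3 fell by 1.85 in C-Myc-sh on the log2 scale. ETS1 was at -0.19 and not called in Slc7a5-sh with the mean of all its probe sets (limma adjusted p = 0.175). Whether the changes of these factors bear on those of the receptor genes was not tested.

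For each of the 9 genes the tested gene with the most similar pattern over the 9 arrays was sought, as the smallest root-mean-square difference between log2 values centred on each gene's mean. It was TSC22D1 for BTK (0.06), HSD17B12 for CD81 (0.02), SMAD4 for CD79B (0.04), CPEB4 for LYN (0.06) and P4HA1 for CD72 (0.09). RNF126 was nearest to CD22 (0.14), NCBP2AS2 to SYK (0.05), POLR3GL to BLNK (0.02) and GOLGA3 to CD79A (0.07). Of these 9 nearest genes, 0 were among the receptor genes described here. With only 9 such genes among the 11250 tested, this count cannot show whether they varied together. The centred values of the genes themselves had a root mean square of 0.09 for BLNK to 0.55 for CD22.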

How the data were processed

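Each sample was 1 array of short oligonucleotides, hybridised with labelled RNA, per the labels' protocols. The authors deposited log2 signals, 1 per probe set and array, for 54613 probe sets, and MAS5 is named per the submitters' processing notes, with no version. The linear values had a 2% trimmed mean of 497 on each array, so each had been scaled to one target, and a change in total RNA per cell cannot be read. Groups and replicate numbers came from the sample titles.

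The platform annotation gave 1 symbol to 41091 probe sets, and the one with the highest mean over 9 arrays stood for its gene. Genes at or above the median probe-set mean (5.77) were tested with limma 3.58.1 in R 4.3.3: lmFit with 3 group means, eBayes with trend (degrees of freedom 6 residual and 8.21 prior), two-sided, Benjamini-Hochberg adjusted over 11250 genes. Probe sets were tested in a fit of their own. The fit was also run on simulated data with changes planted in few genes, a check of the code and not of the results here. Genes are named by rule: the 9 members, MYC, SLC7A5, up to 3 called genes per list and knockdown with the smallest p and no overlap of arrays, not all of them printed for each list, and 1 gene of similar pattern per member. CSK and the cell type markers were named outside this rule. Members and lists were chosen with earlier results of these data known. Alternatives were quantile normalization, no filter or a 75th percentile filter, low values raised to 5.77, the mean of all probe sets, no _s_at or _x_at probe sets, eBayes without trend, fits on the 6 arrays compared alone, a replicate block and omission of each array.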

Additional observations from a re-analysis of the deposited data

How the results depend on the processing

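The 27 changes of the 9 genes gave 477 values under alternative settings: 427 kept direction and side of the threshold, 40 lost and 6 gained a call, and 4 changed sign, other probe sets taken singly not counted. CD72, BLNK and CD79B gave no value without _s_at and _x_at probe sets, since none was left above the level. Calls held in every one for 2 of 6 genes in Slc7a5-sh (CD72 and LYN), 4 of 5 in C-Myc-sh and 5 of 8 in the direct comparison. Members called higher in Slc7a5-sh were 0, in place of 1, with the mean of all probe sets and without _s_at and _x_at probe sets. Members called lower were 3, in place of 5, with that mean and with eBayes without trend, and 3 to 5 on leaving out 1 array. In C-Myc-sh 2 members were higher, in place of 1, under quantile normalization, BLNK being added, 3 with the mean, LYN and SYK being added, and 0 without _s_at and _x_at; leaving out 1 array gave 1 higher and 3 to 4 lower. In the direct comparison 2, in place of 5, were higher without _s_at and _x_at and 3 with eBayes without trend, and 3 to 5 higher and 3 lower on leaving out 1 array. Over all genes 1581, in place of 2843, were called in Slc7a5-sh with the mean of all probe sets. Leaving out 1 array gave 2246 to 2811 in Slc7a5-sh, 5695 to 6296 in C-Myc-sh and 5005 to 5524 in the direct comparison.

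Signs changed only in values that were not called under the alternative. In Slc7a5-sh CD79A was at 0.05 with the mean of all probe sets and at 0.21 without _s_at and _x_at, as with probe set 1555779_a_at, SYK at 0.17 with 244023_at and BTK at -0.01 without Ctrl-sh replicate 2 (-0.01 to 0.11 over the omissions). In the direct comparison CD79A was at -0.04 without _s_at and _x_at, as with 1555779_a_at, and CD22 at 0.10 with 204581_at. Same-numbered arrays did not deviate together (correlations of -0.02 to 0.02 over 9 pairs; own number best in 5 of 18 cases). The replicate block gave 2 members higher in C-Myc-sh, CD79A being added (0.18, limma adjusted p = 0.0351), and ended the call of CD81 in Slc7a5-sh (-0.15, limma adjusted p = 0.0635). Of 55 called changes of other named genes, 16 lost the call under 1 or more alternatives. The causes were not tested.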
